A study of Mus musculus with 47 samples.

Results

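Long-term leucine restriction in female 3xTg mice was examined by comparing the brain RNA libraries of all females labelled as fed the leucine-restricted diet (LeuR) with those of all females labelled as fed the Control diet. The members were taken from the labels alone, and 6 LeuR-fed and 6 Control-fed libraries were compared, which are 12 of the 37 libraries with a column of counts. 3xTg mice express human APP with the Swedish mutation (APPSwe), human tau with a frontotemporal dementia mutation (tauP301L) and a mutant presenilin-1 (PS1M146V), and are used as a model of Alzheimer's disease because they develop both amyloid and tau pathology. All compared mice carried these alleles, so the Control-fed females are also diseased animals and no non-transgenic brain entered the comparison. At 6 months of age the females were switched to a diet of defined amino acids, either the Control diet or one with less leucine, and they ate it for 9 months before the brains were taken. Per the study's methods the mice were homozygous, were randomized to diets by cage, were killed after a short fast, and the RNA came from the left hemisphere. Cage numbers were not among the labels, so cage and diet could not be separated for mice that shared a cage.

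Leucine is a branched-chain amino acid (BCAA) that mammals must eat. Cells read its supply by separate routes. When leucine is plentiful, it is bound by some Sestrin proteins and others that release a brake on mTORC1, the kinase that drives protein synthesis and holds back autophagy. When an amino acid is scarce, uncharged tRNA activates the kinase GCN2, which phosphorylates eIF2α, lowers general translation and raises translation of the transcription factor ATF4. ATF4 then induces genes for amino acid uptake and synthesis and for stress responses, and one of its products, the phosphatase subunit GADD34 encoded by Ppp1r15a, reverses the phosphorylation of eIF2α. In the brain, BCAA nitrogen is also used to make glutamate, through the cytosolic aminotransferase encoded by Bcat1.

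No gene passed an adjusted p of 0.05 between LeuR-fed and Control-fed females. edgeR's quasi-likelihood test on 20344 genes called 0 genes (0%), with a smallest adjusted p of 0.968, and it called 0 genes (0%) with a smallest adjusted p of 0.464 when a cerebellum-versus-forebrain score was added as a covariate. Unadjusted p-values under 0.05 were obtained for 820 genes (4.03%) without the covariate, 462 (2.27%) of them higher and 358 (1.76%) lower in LeuR-fed females, and for 1196 genes (5.88%) with it, 549 (2.7%) higher and 647 (3.18%) lower. These counts moved with single libraries, to between 634 and 1576 without the covariate (1509 without Control library 30 and 1576 without LeuR library 47) and to between 992 and 1906 with it (1906 without Control library 27). limma voom called 0 genes in both fits, with 923 and 1226 genes at an unadjusted p under 0.05. DESeq2 called 1 gene, Gm26648, without the covariate (885 genes at an unadjusted p under 0.05) and 4 genes, Gm26648, Ppp1r15a, Snurf and mt-Atp8, with it (1133 genes). Every gene named here therefore had an adjusted p of at least 0.968 by edgeR without the covariate and of at least 0.464 with it, and the differences given are descriptions of these 12 libraries. The p-values measure the spread between libraries, which the labels number separately, 1 library for each sample.

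The intervals of the differences set how large a change could have gone unseen. Among the 13887 better expressed genes, whose log2 CPM (the count scaled by library size and composition) averaged 1 or more, the 95% interval of the LeuR difference lay within 1.5-fold either way for 72.7% of genes and within 2-fold for 90.4%. With the covariate these shares were 83.2% and 95.6%, and the median standard error (SE) of the log2 difference was 0.098 in place of 0.13. The median log2 difference over all tested genes was 0.0026, and 10291 of 20344 genes lay above 0.

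The brain pieces differed in their make-up. The score, which is the mean log2 CPM of 19 cerebellar genes minus that of 19 forebrain genes, ranged from -6.02 to 2.89 over the Control-fed libraries (median -4.54) and from -5.52 to 5.64 over the LeuR-fed libraries (median -4.33). Control library 30 and LeuR libraries 45 and 48 stood apart with scores above 2, and LeuR library 45 held the forebrain gene Ddn, which encodes the postsynaptic protein dendrin, at 1.48 CPM, where the Control-fed libraries held at least 171 CPM. The mean score was 1.18 higher in LeuR-fed females (two-sided exact permutation test, p = 0.641), and it was 0.33 lower without LeuR library 45. The score term itself passed an adjusted p of 0.05 by edgeR for 9389 genes (46.2%), 22% of genes with a positive and 24.2% with a negative slope. The libraries held 10672583 to 18268456 counts each. In bulk tissue, fewer cells of a type and less RNA per cell cannot be told apart.

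Choroid plexus, the epithelium that makes cerebrospinal fluid, also varied. The mean log2 CPM of 14 choroid plexus genes was -0.80, -0.73, 0.21, 3.00, -0.33 and 0.45 in Control libraries 25 to 30 and 1.89, 4.62, 4.84, 0.15, -0.55 and 2.97 in LeuR libraries 43 to 48. Thus 4 LeuR-fed libraries but only 1 Control-fed library lay above 1. The 11 meningeal genes summed to 43.1, 86.0 and 142 CPM (lowest, median, highest) in Control-fed and to 64.3, 149 and 174 CPM in LeuR-fed females, so the groups overlapped. One extraction note in the labels names liver as the tissue. Only 2 of 9 liver genes were expressed enough to be tested, Apoa2, an apolipoprotein of plasma lipoproteins, lay between 0.062 and 0.563 CPM, and the synaptic gene Snap25 lay between 1031 and 1989 CPM, so the libraries carried the markers of brain.

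**Figure D1:**
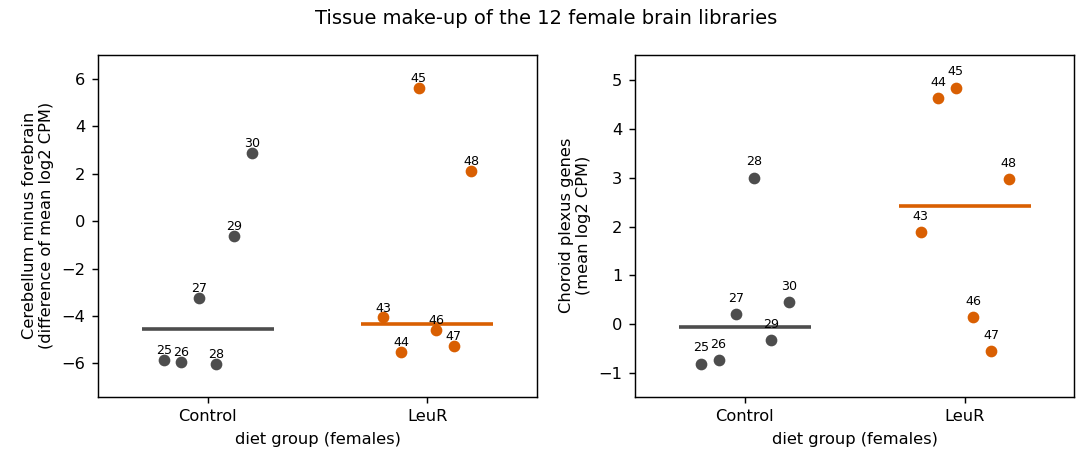
The left panel shows the cerebellum-minus-forebrain score (difference of mean log2 CPM) and the right panel the mean log2 CPM of 14 choroid plexus genes, with 1 numbered point for each of the 6 Control and 6 LeuR female libraries and a line at each group's median. Libraries 30, 45 and 48 lie above 2 in the left panel, and 4 LeuR libraries but 1 Control library lie above 1 in the right panel.

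Among the kinases and phosphatase subunits that set eIF2α phosphorylation, Ppp1r15a had the smallest p. It measured 9.53, 10.5 and 16.3 CPM (lowest, median, highest) in Control-fed and 13.4, 15.5 and 18.7 CPM in LeuR-fed females. All 6 LeuR-fed libraries lay above the Control median and 2 above the highest Control-fed library, so the groups overlapped. The log2 difference was 0.43 ± 0.12 (SE, n = 6 and 6), or 1.35-fold, and 0.39 ± 0.081 with the covariate, where edgeR's adjusted p was 0.464. Ppp1r15a was 1 of 9 tested genes of this list with an unadjusted p under 0.05, beside 2.27% of all genes higher and 1.76% lower at that p. List counts that follow are read against these shares only for the fit of all libraries without a covariate. With the score covariate the shares were 2.7% higher and 3.18% lower. With the choroid plexus level as covariate 516 of 20344 genes had an unadjusted p under 0.05. Without 1 library at a time 634 to 1576 genes did, 1509 without Control library 30 and 1576 without LeuR library 47. The list, which holds the 4 eIF2α kinase genes, had a median log2 difference of -0.020 with 4 of 9 genes above 0, and the median lay between -0.047 and 0.081 without 1 library at a time.

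ATF4 and its targets lay mostly on the higher side in LeuR-fed females. Of 33 tested members of the list, 28 had log2 differences above 0 (10291 of 20344 over all genes), the median was 0.11 (0.0026 over all genes), 4 had an unadjusted p under 0.05 with a higher mean and 0 with a lower mean, beside 2.27% and 1.76% of all genes. With the score as covariate, 29 lay above 0, the median was 0.11 and 6 had an unadjusted p under 0.05, all higher. The 4 genes were Atf5, Chac1, Ddit3 and Mthfd2.

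Atf5, a transcription factor of the integrated stress response, measured 25.0, 29.1 and 36.2 CPM in Control-fed and 34.3, 40.7 and 43.9 CPM in LeuR-fed females. Each LeuR-fed library lay above the Control median and 4 lay above the highest Control-fed library. Its log2 difference was 0.42 ± 0.13. Chac1, which degrades glutathione, measured 6.29, 8.64 and 9.82 CPM in Control-fed and 6.78, 10.9 and 22.6 CPM in LeuR-fed females, and the highest value came from LeuR library 47. Its log2 difference was 0.54 ± 0.21. Mthfd2, a mitochondrial enzyme of one-carbon metabolism, measured 7.60, 9.20 and 13.2 CPM in Control-fed and 10.1, 12.7 and 18.7 CPM in LeuR-fed females, with a log2 difference of 0.40 ± 0.18. Ddit3, which encodes the transcription factor CHOP, measured 14.0, 15.0 and 21.1 CPM in Control-fed and 15.5, 19.8 and 31.4 CPM in LeuR-fed females, with a log2 difference of 0.33 ± 0.14. For Mthfd2 and Ddit3 all 6 LeuR-fed libraries lay above the Control median while the groups overlapped.

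Other members of the list are named after their values were seen, and in the fit without the covariate none of them had an unadjusted p under 0.05. Atf4 itself measured 106, 119 and 128 CPM in Control-fed and 102, 124 and 168 CPM in LeuR-fed females (log2 difference 0.10 ± 0.097). Asns, the asparagine synthetase gene that responds strongly to amino acid shortage in many cells, measured 85.2, 99.7 and 101 CPM and 81.2, 97.4 and 141 CPM (0.088 ± 0.10). Only 2 of 6 LeuR-fed libraries lay above the Control median of Asns. Trib3, a pseudokinase that restrains ATF4, had a log2 difference of 0.34 ± 0.26, Slc7a11, the cystine importer, of 0.33 ± 0.16 (0.38 ± 0.14 with the covariate, where its unadjusted p was 0.0123), and Cebpg, a partner of ATF4, of -0.014 ± 0.054.

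The counts for the ATF4 list were also taken without each library in turn and with the tissue levels in the fit. Leaving out 1 library at a time gave 2 to 5 members with an unadjusted p under 0.05 (all higher), 28 to 31 members above 0 and medians of 0.097 to 0.15. The count was 2 without Control library 29 or LeuR library 47 and 5 without Control library 30 or LeuR library 44 or 48. Without Control library 30 and LeuR libraries 45 and 48 there were 4 such members, 27 above 0 and a median of 0.11. With the choroid plexus level as covariate there were 4 such members, 26 above 0 and a median of 0.089.

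**Figure D2:**
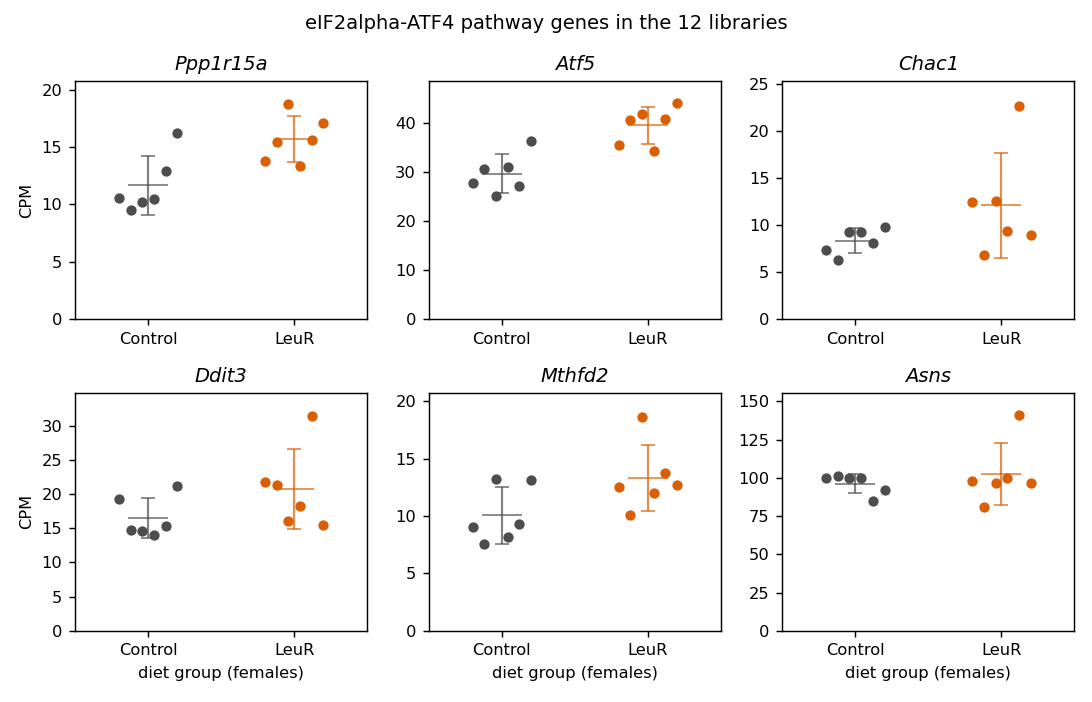
CPM of 6 genes of the eIF2α and ATF4 pathway in the 6 Control (grey) and 6 LeuR (orange) female libraries, 1 point a library, with the mean and SD of each group. For Ppp1r15a, Atf5, Ddit3 and Mthfd2 all 6 LeuR points lie above the Control median, whereas for Asns 2 of 6 do.

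Because these genes are known targets of ATF4, the promoter windows of the list were searched for TGATGNA, the core of the composite element that ATF4 binds with C/EBP proteins, on both strands. RefSeq windows of the GRCm38.p6 build, from 250 bases before to 50 bases after the start, were found for 29 of the 33 tested members, and 14 of them (48.3%) held the motif. It was present in 1274 of the 13450 tested genes with a window (9.47%) and in 3723 of 27025 genes in all (13.8%). The list was chosen as known ATF4 targets, so its share does not describe the LeuR libraries. Of the 5 genes described above with the smallest p-values, the windows of Atf5, Chac1 and Mthfd2 held a match, and those of Ddit3 and Ppp1r15a did not hold these letters. A gene was counted as holding the motif if any of its windows did, and a second window of Atf5, at chr7:44816609-44816908, held no match. The windows of the 3 genes with a match are shown 5′ to 3′ on the strand of the gene, with the match in capitals. The match began 38 bases after the start in Atf5, 192 bases before it on the other strand in Chac1 and 185 bases before it in Mthfd2. The windows lie at chr7:44815609-44815908 (minus strand), chr2:119350992-119351291 (plus strand) and chr6:83317555-83317854 (minus strand).
Atf5: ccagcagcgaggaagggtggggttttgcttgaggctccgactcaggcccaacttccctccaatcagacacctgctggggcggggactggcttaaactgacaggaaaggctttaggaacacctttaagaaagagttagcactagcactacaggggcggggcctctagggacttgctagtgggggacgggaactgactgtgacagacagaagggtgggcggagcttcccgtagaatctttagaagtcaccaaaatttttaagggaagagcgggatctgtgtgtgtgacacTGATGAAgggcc
Chac1: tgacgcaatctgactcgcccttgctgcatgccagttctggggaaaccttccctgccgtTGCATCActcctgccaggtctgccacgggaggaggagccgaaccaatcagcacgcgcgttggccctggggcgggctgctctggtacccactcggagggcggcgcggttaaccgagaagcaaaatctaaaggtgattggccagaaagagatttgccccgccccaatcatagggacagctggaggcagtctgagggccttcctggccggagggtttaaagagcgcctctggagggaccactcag
Mthfd2: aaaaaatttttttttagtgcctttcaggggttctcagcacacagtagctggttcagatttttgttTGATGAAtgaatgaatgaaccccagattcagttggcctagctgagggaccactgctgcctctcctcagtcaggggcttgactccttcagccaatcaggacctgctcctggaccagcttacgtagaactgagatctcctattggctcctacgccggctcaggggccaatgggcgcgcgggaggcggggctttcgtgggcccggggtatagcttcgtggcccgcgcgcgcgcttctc
A match is a description of the sequence and not a site shown to be bound in these brains.

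The genes that carry, sense and break down leucine had list medians between -0.0060 and 0.069. Of 12 BCAA transporter genes, 6 lay above 0 and 1, Slc43a1, had an unadjusted p under 0.05 with a higher mean (2.27% of all genes), at 0.114, 0.159 and 0.249 CPM in Control-fed and 0.0873, 0.327 and 0.495 CPM in LeuR-fed females. Slc43a1 encodes LAT3, a carrier of branched-chain and other neutral amino acids, and its level of under 0.5 CPM rests on few counts. At that p, 0 to 1 transporter gene was higher and 0 to 1 lower when single libraries were left out. Slc7a5, the gene of the main leucine carrier LAT1 at the blood-brain barrier, measured 66.4, 82.1 and 99.6 CPM in Control-fed and 57.6, 82.0 and 101 CPM in LeuR-fed females (log2 difference -0.0023 ± 0.13). Slc3a2, which encodes the heavy chain that LAT1 pairs with, had a log2 difference of 0.080 ± 0.083.

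In BCAA breakdown, 0 of 8 genes of transamination and of the branched-chain ketoacid dehydrogenase (BCKDH) and 0 of 9 genes of the leucine branch had an unadjusted p under 0.05. Bcat1 measured 79.4, 83.5 and 160.4 CPM in Control-fed and 81.0, 116 and 133 CPM in LeuR-fed females, with a log2 difference of 0.17 ± 0.16. The BCKDH subunit genes Bckdha, Bckdhb and Dbt had log2 differences of 0.14 ± 0.10, 0.026 ± 0.12 and 0.095 ± 0.088. Bckdk, the kinase that inactivates the complex, had -0.0058 ± 0.064, and Ppm1k, the phosphatase that reactivates it, -0.22 ± 0.13. The groups overlapped for each of these genes. Mccc1, a subunit of the leucine-specific methylcrotonyl-CoA carboxylase, had a log2 difference of 0.27 ± 0.16, which became 0.089 with the choroid plexus level as covariate. With the score covariate 1 gene of each list had an unadjusted p under 0.05, Dld, the shared dehydrogenase subunit, lower and Mccc1 higher. When single libraries were left out 0 to 1 gene of the BCKDH list was higher and 0 to 1 lower at that p, and 0 to 1 gene of the leucine branch was higher. In the valine and isoleucine branches 13 of 14 genes lay above 0 (median 0.091), and 1 had an unadjusted p under 0.05, the propionyl-CoA carboxylase gene Pccb at 52.6, 57.1 and 65.1 CPM against 55.0, 64.1 and 67.9 CPM. Between 0 and 3 genes of these branches were higher at that p when single libraries were left out.

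Among 24 genes of amino acid sensing upstream of mTORC1, 9 lay above 0 (median -0.0060) and 3 had an unadjusted p under 0.05 with a lower mean in LeuR-fed females (1.76% of all genes). Fits without single libraries gave 0 (without Control library 25 or LeuR library 48) to 4 such genes (without LeuR library 47), and the median lay between -0.036 and 0.0060. Bmt2, which encodes the S-adenosylmethionine sensor SAMTOR, measured 30.7, 32.7 and 36.1 CPM in Control-fed and 27.9, 29.7 and 31.5 CPM in LeuR-fed females. Sar1a measured 112, 120 and 124 CPM against 94.9, 108 and 122 CPM, and its paralog Sar1b 37.0, 41.1 and 46.0 CPM against 35.8, 37.7 and 39.6 CPM. Both encode small GTPases of vesicle transport that have been described as leucine sensors. All 6 LeuR-fed libraries lay below the Control median for Bmt2 and Sar1b and 5 of 6 for Sar1a. The log2 differences were -0.15 ± 0.061, -0.12 ± 0.057 and -0.12 ± 0.056 for Bmt2, Sar1a and Sar1b. Without Control library 30 and LeuR libraries 45 and 48, 0 of the 24 genes had an unadjusted p under 0.05.

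The Sestrin genes Sesn1, Sesn2 and Sesn3 had log2 differences of -0.034 ± 0.17, 0.24 ± 0.19 and 0.079 ± 0.13. Lars, the cytosolic leucyl-tRNA synthetase that also signals leucine to mTORC1, had -0.049 ± 0.073. Of 27 genes of mTORC1 and its regulators, 13 lay above 0 and 1 had an unadjusted p under 0.05, Lamtor1, a subunit of the lysosomal anchor, at 45.3, 46.4 and 50.3 CPM in Control-fed and 41.6, 43.5 and 47.3 CPM in LeuR-fed females. Eif4ebp1, the translation repressor that mTORC1 phosphorylates, had a log2 difference of 0.40 ± 0.21, and LeuR library 47 stood apart from its group at 6.54 CPM. With the score covariate Lamtor1 was lower and Eif4ebp1 higher at an unadjusted p under 0.05. When single libraries were left out 0 to 2 genes of this list were lower and 0 to 1 higher at that p. Of 40 autophagy genes, 13 lay above 0 (median -0.032) and 0 had an unadjusted p under 0.05 without the score covariate, whereas 3 did with it, Becn1, Atg13 and Wipi2, all lower. The autophagy genes Atg5, Atg7, Becn1 and Sqstm1 had log2 differences of -0.060 ± 0.078, -0.10 ± 0.073, -0.14 ± 0.083 and -0.034 ± 0.10, and Sqstm1 had 0.0084 with the score covariate. Map1lc3a and Map1lc3b, which encode the LC3 proteins of the autophagosome membrane, had 0.030 ± 0.095 and -0.065 ± 0.073, and Atg16l1 had -0.031 ± 0.059. Among the autophagy genes, 0 to 3 were lower and 0 to 1 higher at an unadjusted p under 0.05 when single libraries were left out. All of these values are mRNA levels and do not measure the activity of mTORC1.

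Of 20 cytosolic aminoacyl-tRNA synthetase genes, 13 lay above 0 (median 0.034) and 0 had an unadjusted p under 0.05 without the score covariate, whereas 1 did with it, Cars, which was higher. When single libraries were left out 0 to 2 were higher at that p (2 without LeuR library 43 or 44). Lars2, the mitochondrial leucyl-tRNA synthetase, was outside the lists and is named after its values were seen. It measured 90.8, 106 and 237 CPM in Control-fed and 64.0, 72.0 and 82.5 CPM in LeuR-fed females, so all 6 LeuR-fed libraries lay below all 6 Control-fed libraries. The log2 difference was -0.84 ± 0.31, and -0.81 ± 0.28 with the covariate. The spread of Lars2 was wide in Control-fed libraries and narrow in LeuR-fed ones. Control libraries 30 and 29 held the highest values, 237 and 146 CPM, while Control libraries 25 to 28 lay between 90.8 and 114 CPM.

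Complete separation of the groups was seen for 27 genes with all 6 LeuR-fed libraries above all 6 Control-fed libraries (0.133% of genes tested) and for 17 genes with all 6 below (0.0836%). Among 20344 genes some separate fully by chance alone, and whether these counts exceed that was not tested. Of the separated genes that were better expressed, 6 were higher and 13 lower. Crispld2, a secreted glycoprotein gene, measured 1.83, 3.33 and 4.10 CPM in Control-fed and 4.18, 5.01 and 8.11 CPM in LeuR-fed females (log2 difference 0.83 ± 0.30, 1.77-fold). Nucks1, a chromatin protein, measured 106, 116 and 122 CPM in Control-fed and 90.6, 98.8 and 106 CPM in LeuR-fed females (-0.23 ± 0.054). Abhd13, a predicted hydrolase of the membrane, measured 42.3, 44.9 and 48.0 CPM and 38.0, 39.2 and 40.5 CPM (-0.20 ± 0.050). Some separations were narrow, since the fold differences of Nucks1 and Abhd13 were 1.18 and 1.15.

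The gene with the smallest p without the covariate was Gm26648, an antisense RNA gene that lies entirely within Nub1 on the opposite strand (chr5:24696902-24704690, minus strand, GENCODE annotation of GRCm38). It measured 1.09, 1.31 and 1.61 CPM in Control-fed and 2.20, 2.69 and 3.06 CPM in LeuR-fed females, without overlap, with a log2 difference of 0.95 ± 0.19 (1.94-fold). Nub1 had -0.029 ± 0.064. Snurf, an imprinted gene transcribed together with Snrpn, measured 24.9, 28.6 and 30.4 CPM and 30.8, 36.4 and 57.3 CPM, also without overlap, with a log2 difference of 0.54 ± 0.14. Snurf lies within Snrpn on the same strand, and Snrpn had -0.11 ± 0.10. mt-Atp8, a mitochondrial ATP synthase subunit gene, had a log2 difference of 0.48 ± 0.097 with the covariate, and mt-Atp6, which it overlaps by 43 bases, had 0.076 ± 0.10. How reads of overlapping genes were divided was not given in the sources used here, so the values of Gm26648, Snurf and mt-Atp8 are uncertain.

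**Figure D3:**
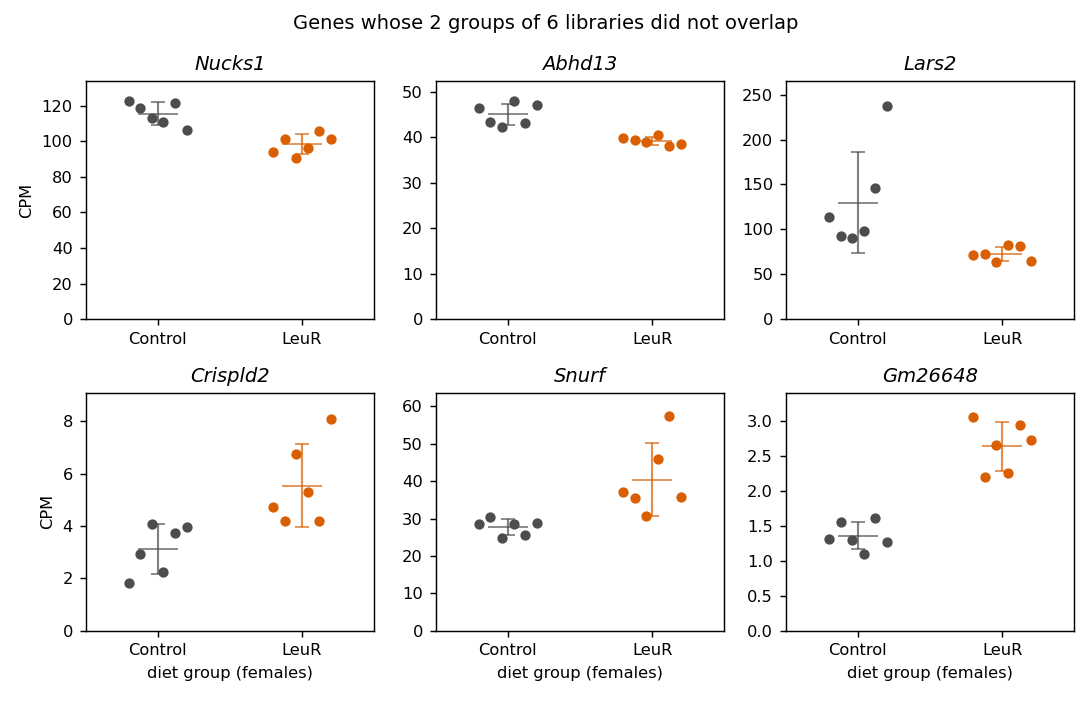
CPM of 6 genes whose 6 Control (grey) and 6 LeuR (orange) female libraries did not overlap, 1 point a library, with the mean and SD of each group. Nucks1, Abhd13 and Lars2 lie lower and Crispld2, Snurf and Gm26648 lie higher in LeuR-fed females.

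Other genes with the smallest p-values in either fit covered many functions. Those with higher means in LeuR-fed females included Hmbox1, a telomere-binding homeobox factor (log2 difference 0.33 ± 0.093), Ndufa3, a complex I subunit (0.27 ± 0.079), Rps27, a small ribosomal subunit protein (0.29 ± 0.11), and mt-Nd6, a mitochondrially encoded complex I subunit (0.34 ± 0.12). Those with lower means included Trim23, a ubiquitin ligase (-0.23 ± 0.061), Fam53c (-0.22 ± 0.060), Kbtbd8, an adaptor of a cullin ubiquitin ligase (-0.39 ± 0.11), and Pdhx, a component of the pyruvate dehydrogenase complex (-0.18 ± 0.053). For each of these 4 genes no LeuR-fed library lay above the Control median, but the groups overlapped. Slc52a2, a riboflavin transporter (-0.22 ± 0.066), Spata7 (-0.22 ± 0.066), Adnp2 (-0.21 ± 0.066), Vma21, an assembly factor of the vacuolar proton pump (-0.18 ± 0.089), Kdsr, an enzyme of sphingolipid synthesis (-0.16 ± 0.071), and Cryl1 (-0.39 ± 0.13) completed the lower group.

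Most genes of the ribosome and respiratory chain had slightly higher means in LeuR-fed females. Of 79 cytosolic ribosomal protein genes, 68 lay above 0 with a median of 0.068, and 3 had an unadjusted p under 0.05, all higher: Rps27, Rpl28 and Rps28. Over all genes 2.27% were higher and 1.76% lower at that p. Rps6, whose product is phosphorylated downstream of mTORC1, had a log2 difference of 0.066 ± 0.070. With the covariate 74 lay above 0 and 11 had an unadjusted p under 0.05. Rpl28 measured 116, 140 and 169 CPM in Control-fed and 148, 162 and 171 CPM in LeuR-fed females, with each LeuR-fed library above the Control median. Leaving out 1 library at a time gave 1 (without LeuR library 43) to 16 (without LeuR library 45) ribosomal protein genes with an unadjusted p under 0.05. Of 76 oxidative phosphorylation genes, 53 lay above 0 (median 0.035), and 5 were higher and 1 lower at an unadjusted p under 0.05. Without 1 library at a time 3 (without LeuR library 44) to 19 (without Control library 30) were higher, and the medians were 0.015 to 0.091. Without Control library 30, 1509 of all 20471 tested genes had an unadjusted p under 0.05 in either direction.

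Among the oxidative phosphorylation genes, the ATP synthase subunit gene Atp5k measured 30.3, 39.0 and 46.5 CPM in Control-fed and 44.1, 48.2 and 55.1 CPM in LeuR-fed females, with 5 of 6 LeuR-fed libraries above the highest Control-fed library. The complex III gene Uqcrb had a log2 difference of 0.20 ± 0.065, and the cytochrome c oxidase genes Cox7b and Cox5b had 0.15 ± 0.060 and 0.14 ± 0.065. Atp5e, another ATP synthase subunit gene, went the other way, at 4.42, 25.8 and 57.5 CPM in Control-fed and 5.79, 6.87 and 9.55 CPM in LeuR-fed females (-1.81 ± 0.55). The Control-fed libraries of Atp5e spanned more than the whole range of the LeuR-fed ones.

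Cholesterol synthesis and uptake genes mostly had lower means in LeuR-fed females. Only 1 of 27, Insig2, lay above 0, the median was -0.16, and 2 had an unadjusted p under 0.05, both lower, a count that became 7 with the score covariate and 0 with the choroid plexus level as covariate. It ranged without single libraries from 0 (without Control library 26 or LeuR library 48) to 6 (without Control library 30), with medians of -0.18 to -0.11. Scap, the escort of the SREBP transcription factors, measured 101, 112 and 119 CPM in Control-fed and 88.5, 101 and 110 CPM in LeuR-fed females. Acat2, an acetyl-CoA acetyltransferase, measured 28.7, 39.0 and 42.2 CPM and 24.2, 32.8 and 36.9 CPM. No LeuR-fed library lay above the Control median for either gene. The summed CPM of the list was lowest in the 3 libraries with the highest cerebellar scores, and without these 3 libraries 1 of 27 genes had an unadjusted p under 0.05 and the median was -0.11.

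Chaperone genes of the endoplasmic reticulum accounted for the heat shock list's low p-values along with Hspb1. Of 24 chaperone genes, 16 lay above 0 (median 0.096) and 4 had an unadjusted p under 0.05, all higher. Hspa5, which encodes the central chaperone BiP, measured 237, 277 and 320.1 CPM in Control-fed and 244, 340.2 and 464 CPM in LeuR-fed females (log2 difference 0.34 ± 0.13). Sdf2l1, a BiP co-factor, had 0.50 ± 0.17, Manf, a secreted protein of this compartment, 0.27 ± 0.12, and the small heat shock protein gene Hspb1 0.47 ± 0.19. With the choroid plexus level as covariate the 4 log2 differences were 0.22, 0.29, 0.16 and 0.24 and 0 of 24 genes had an unadjusted p under 0.05. With the score covariate 7 did, all higher. Without 1 library at a time the count ranged from 1 (without LeuR library 44) to 8 (without LeuR library 47), with medians of 0.034 to 0.14. Choroid plexus levels were high in LeuR libraries 44 and 45, and the count was 3 without LeuR library 45. Without LeuR library 47, 1576 of all 20425 tested genes had an unadjusted p under 0.05 in either direction.

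Of all lists measured, the choroid plexus genes had the largest median difference. All 14 choroid plexus genes lay above 0 with a median of 2.45, and 7 had an unadjusted p under 0.05 by edgeR, beside 1 by limma voom and 10 by DESeq2. Leaving out 1 library at a time gave 1 to 12 such genes and medians of 1.90 to 3.73. Ttr, the thyroid hormone carrier transthyretin that choroid plexus secretes in quantity, measured 0, 1.82 and 655 CPM in Control-fed and 1.11, 307 and 2083 CPM in LeuR-fed females. Kl, the gene of the anti-ageing protein klotho, measured 2.02, 5.52 and 29.9 CPM and 4.31, 17.1 and 88.8 CPM. For both genes 2 LeuR-fed libraries lay above the highest Control-fed library and the groups overlapped below it.

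Several genes with low p-values were fitted again with the choroid plexus level as covariate. Igf2, a growth factor made by choroid plexus and meninges, measured 26.0, 55.0 and 77.3 CPM in Control-fed and 65.3, 89.9 and 146 CPM in LeuR-fed females, with all 6 LeuR-fed libraries above the Control median. Its log2 difference was 0.89 ± 0.30 and became 0.64 with that covariate. Igfbp2, an IGF-binding protein, had 0.64 ± 0.27, which became 0.28, and Steap4, a metalloreductase, had 1.90 ± 0.50, which became 1.21. Timp1, an inhibitor of matrix proteases, had 1.69 ± 0.47, which became 1.61, at levels from 0 to 1.16 CPM over all 12 libraries. Its 6 LeuR-fed libraries all lay above the 6 Control-fed ones.

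Prelp, a proteoglycan of connective tissue, measured 19.5, 31.0 and 35.3 CPM in Control-fed and 34.6, 39.9 and 48.1 CPM in LeuR-fed females, and 5 of 6 LeuR-fed libraries lay above the highest Control-fed one (log2 difference 0.47 ± 0.12). Dab2, an endocytic adaptor, measured 5.60, 7.91 and 13.7 CPM and 10.9, 13.3 and 16.9 CPM (0.72 ± 0.20). The 11 meningeal genes all lay above 0 with a median of 0.55 and 2 had an unadjusted p under 0.05, Slc13a4 (0.79 ± 0.32) and Aldh1a2 (0.80 ± 0.35). Leaving out 1 library at a time gave 0 (without Control library 29) to 7 such meningeal genes (without Control library 26) and medians of 0.45 to 0.77. With the choroid plexus level as covariate the log2 differences of Prelp and Dab2 were 0.37 and 0.51, and without the 3 cerebellum-rich libraries they were 0.35 and 0.53.

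**Figure D4:**
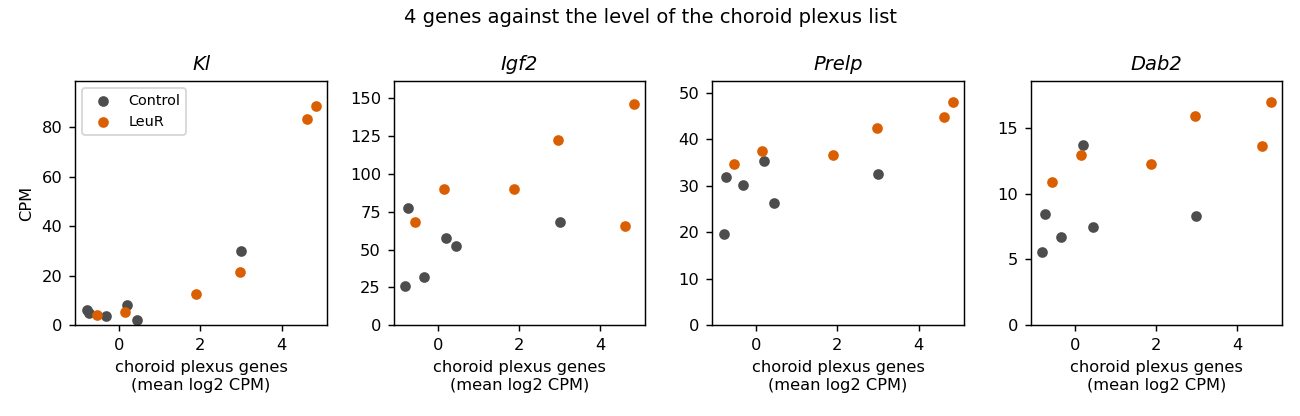
CPM of 4 genes (vertical axes) against the mean log2 CPM of the choroid plexus list (horizontal axes) in the 6 Control (grey) and 6 LeuR (orange) female libraries. Kl is itself 1 of the 14 genes of that list, so its relation to the axis is partly built in. The LeuR libraries with the highest choroid plexus levels, 44 and 45 at 4.62 and 4.84, lie at the right of each panel.

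Glial and immune genes that respond to amyloid were examined because the mice carry its transgenes. Of 27 disease-associated microglia genes, 21 lay above 0 (median 0.21) and 3 had an unadjusted p under 0.05, all higher. Gpnmb, a glycoprotein of lipid-laden macrophages, measured 2.25, 3.15 and 3.99 CPM in Control-fed and 3.40, 5.58 and 10.0 CPM in LeuR-fed females, with 5 of 6 LeuR-fed libraries above the highest Control-fed one (log2 difference 0.98 ± 0.26). Ctsz, a lysosomal protease, had 0.21 ± 0.099, and Cd74, the invariant chain of MHC class II, 0.68 ± 0.32. Leaving out 1 library at a time gave 1 (without Control library 29 or LeuR library 43, 44 or 45) to 8 such genes (without LeuR library 47) and medians of 0.098 to 0.30. Without LeuR library 47, 1576 of all 20425 tested genes had an unadjusted p under 0.05 in either direction. With the choroid plexus level as covariate the differences of Gpnmb, Ctsz and Cd74 were 0.68, 0.085 and 0.48, 11 of 27 genes lay above 0 and the median was -0.045, and without the 3 cerebellum-rich libraries 16 lay above 0 and the median was 0.032.

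Of 16 reactive astrocyte genes, 13 lay above 0 (median 0.28) and 3, Steap4, Timp1 and Hspb1, had an unadjusted p under 0.05, a count that ranged from 2 (without LeuR library 45) to 6 (without LeuR library 47) without 1 library at a time. Gfap, the intermediate filament gene used to mark reactive astrocytes, measured 138, 183 and 365 CPM in Control-fed and 149.8, 307 and 505 CPM in LeuR-fed females (log2 difference 0.66 ± 0.33), with 3 LeuR-fed libraries above the highest Control-fed one. With the choroid plexus level as covariate the difference of Gfap was 0.16, 8 of 16 genes lay above 0 and the median was 0.034. Aif1, the microglial gene that encodes IBA1, had a log2 difference of -0.096 ± 0.22. C3, the central complement component, was the 1 of 18 complement genes with an unadjusted p under 0.05, at 0.628, 1.76 and 2.79 CPM in Control-fed and 0.131, 6.65 and 13.5 CPM in LeuR-fed females. Its log2 difference was 1.86 and became 0.21 with the choroid plexus level as covariate, and with the score covariate 0 of the 18 complement genes had an unadjusted p under 0.05. Without 1 library at a time 0 to 2 complement genes did.

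Most interferon response genes had lower means. Of 25 genes, 6 lay above 0 (median -0.23) and 4 had an unadjusted p under 0.05, all lower. Fits without single libraries gave 1 (without Control library 26) to 6 such genes (without Control library 30 or LeuR library 45) and medians of -0.33 to -0.11. Oasl2, an antiviral protein induced by interferon, measured 3.198, 6.27 and 16.1 CPM in Control-fed and 2.48, 3.94 and 5.75 CPM in LeuR-fed females (log2 difference -0.90 ± 0.36). Isg15, a ubiquitin-like modifier, had -0.81 ± 0.30, Ifit1 -0.62 ± 0.26 and Ifit3 -0.41 ± 0.19. For all 4 genes no LeuR-fed library lay above the Control median, and the groups overlapped. With the choroid plexus level as covariate 5 genes had an unadjusted p under 0.05, all lower, with a median of -0.34.

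In the fit without the score covariate no gene of the amyloid, tau and glutamate receptor lists had an unadjusted p under 0.05, whereas with it 1, 2 and 2 genes of these lists did, all lower (Aplp2, then Mark2 and Ppp2r2b, then Grin1 and Grm4). Grm4 is also 1 of the 19 cerebellar genes that form the score, so its test with the score covariate is not independent of that covariate. Of 26 genes of amyloid precursor processing and clearance, 14 lay above 0 (median 0.0040) and 0 had an unadjusted p under 0.05. App measured 1519, 1948 and 2144 CPM in Control-fed and 1464, 1768 and 2012 CPM in LeuR-fed females (log2 difference -0.13 ± 0.10). Of 23 genes of tau and its kinases, 2 lay above 0 (median -0.072) and 0 had an unadjusted p under 0.05. Mapt, which encodes tau, measured 549, 585 and 606 CPM in Control-fed and 509.6, 552 and 608 CPM in LeuR-fed females (-0.074 ± 0.063). These mouse gene counts may include reads of the human transgenes, which the counting could not separate. Of 32 glutamate receptor and postsynaptic genes, 7 lay above 0 (median -0.13) and 0 had an unadjusted p under 0.05. Without 1 library at a time the medians of the amyloid, tau and glutamate lists lay from -0.062 to 0.031, from -0.12 to -0.030 and from -0.22 to -0.084.

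**Figure D5:**
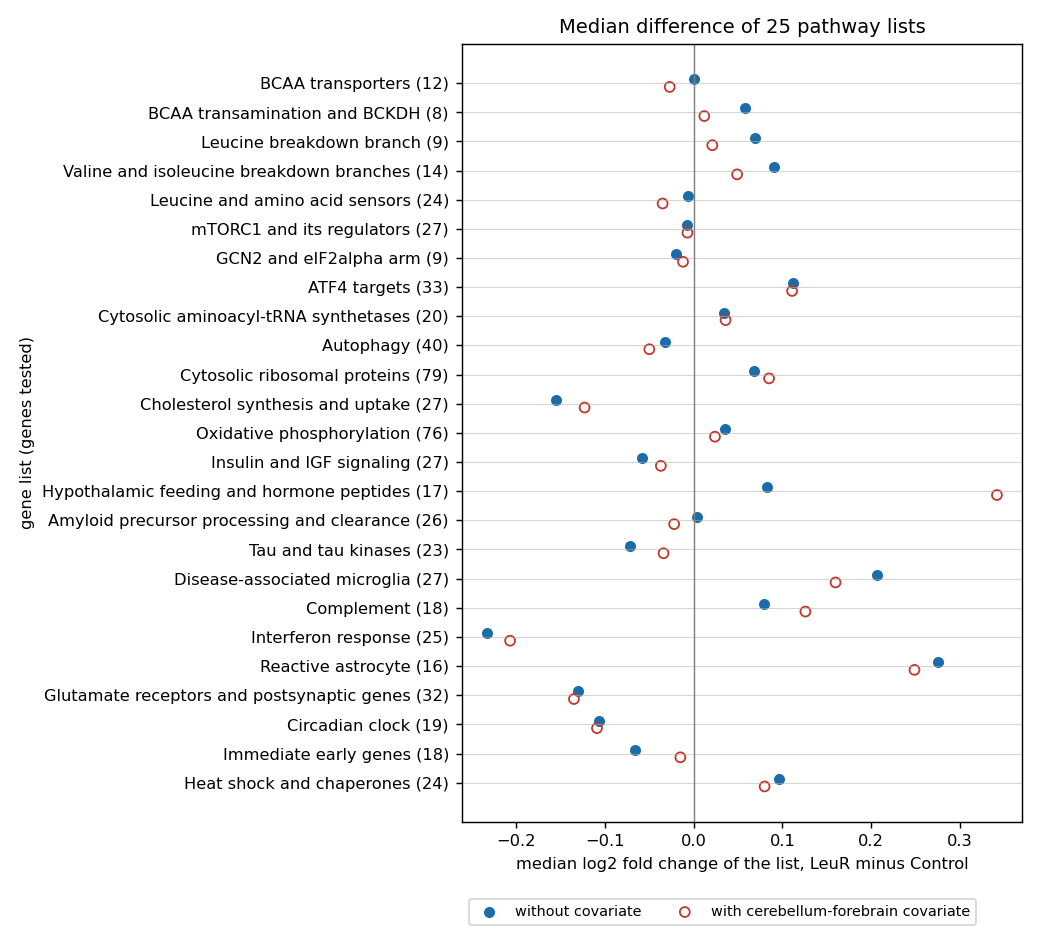
Median log2 difference (LeuR minus Control, females) of the tested genes of 25 pathway lists, with the number of genes in brackets, from the fit without (filled) and with (open) the cerebellum-forebrain covariate. The reactive astrocyte list (0.28) lies farthest right and the interferon list (-0.23) farthest left without the covariate.

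The LeuR libraries were also set against females on the diets low in isoleucine (IleR, 5 libraries) and valine (ValR, 6 libraries), which asks whether restriction of 1 BCAA differs from another. These contrasts share the LeuR libraries with the comparison above. edgeR called 0 genes (0%) between LeuR and IleR, with 1250 (6.14%) at an unadjusted p under 0.05 and a smallest adjusted p of 0.154, and 0 genes (0%) between LeuR and ValR, with 1014 (4.98%) and 0.769. DESeq2 called 23 and 2 genes. Among the 23 was Hspb1, 0.85 higher on the log2 scale in LeuR-fed than in IleR-fed females (adjusted p = 0.048 by DESeq2), named after its value was seen.

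The female difference was compared with that of the males, of which 4 Control-fed and 3 LeuR-fed libraries had counts. By edgeR, the interaction of diet and sex passed an adjusted p of 0.05 for 1 of 22465 genes (0.00445%, 2911 genes or 13% at an unadjusted p under 0.05). This count was 464 with the cerebellum-forebrain covariate, 310 by DESeq2, 598 without male Control library 4, 72 without male LeuR library 20 and 6 without male LeuR library 21. Insig1, which retains SCAP and the SREBP factors in the endoplasmic reticulum, did not pass, with an interaction of -0.74 on the log2 scale, female minus male (adjusted p = 0.0972 by edgeR), and is named after its value was seen. The sexes were counted in separate tables, so sex and table cannot be told apart, and the cerebellum-forebrain scores of the male groups did not overlap, lying from -6.54 to -3.90 in Control-fed and from -2.18 to 2.35 in LeuR-fed males.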

How the data were processed

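RNA-seq libraries of 3xTg mouse brain were analysed from the expected counts per Ensembl gene that the authors deposited, 1 table a sex. The authors aligned reads to GRCm38.p5, and the processing notes name R 3.4.3, edgeR and limma. The aligner and the strand setting of counting are not given in the sources used here, and the labels name both a poly(A) and a total RNA kit. Per the study's methods, the authors left out outlying libraries found by principal component analysis. Their tables of fold changes and p-values were not used, and 10 labelled male libraries were not analysed here.

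Expected counts were rounded to whole numbers. A gene was kept if all libraries of 1 or more diet groups had a count of 1 or more, and all 23 female libraries were fitted together with edgeR 4.0.16 (TMM, glmQLFit and glmQLFTest, R 4.3.3), with Benjamini-Hochberg adjustment over all tested genes and a threshold of 0.05. A second fit added the cerebellum-forebrain score (mean log2 CPM, prior count 2). CPM values are TMM-scaled, and levels are compared between libraries only. limma voom (3.58.1), DESeq2 (1.42.0), other scalings, filters, covariates and library sets were alternatives, and leaving out the 3 cerebellum-rich libraries or 1 male library was added after seeing the data. The fits were tested on simulated data. No replicate pair within the groups agreed within sampling noise (lowest chi-square per degree of freedom 11.1 over 30 pairs). The library totals of 10672583 to 18268456 counts set the precision of each value.

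The compared groups, gene lists and tests were chosen with earlier results of these data known. Named genes were the 8 with the smallest p in each direction and fit (mean log2 CPM of at least 1, named genes), genes called by an alternative, list members with an unadjusted p under 0.05 or otherwise the 2 with the smallest p, genes of the proteins the study assayed, leucine sensors, BCKDH genes and the most abundant marker of each list. Other genes (non-overlapping genes, list members with a low p only with the covariate, Asns, Atf4, Trib3, Slc7a11, Cebpg, Slc7a5, Slc3a2, Lars2, Kl, Insig1 and Insig2) were chosen after their values were seen. Results for some genes are not reported here.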

Additional observations from a re-analysis of the deposited data

Results flagged for a closer look

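Within groups of 6 libraries, 17 of 328 values had a single library far from the other 5 by Dixon's 95% limit, which chance gives in about 1 in 20 groups. In Control-fed females, library 27 stood apart for Dab2 (13.7 CPM), Gfap (365 CPM) and Ntng1, a thalamic marker (67.2 CPM). Control library 28 stood apart for Ttr (655 CPM), the choroid plexus mean (3.00 log2 CPM) and the choroid plexus sum (759 CPM). Control library 30 had the highest cerebellar sum (6087 CPM) and the lowest cholesterol list sum (1249 CPM, the others at 1701 to 1814 CPM). Control library 26 was high for the activity-induced gene Npas4 (41.8 CPM), and Control library 25 held Oxt at 0.571 CPM. In LeuR-fed females, library 43 held the hypothalamic peptide gene Oxt at 39.6 CPM while the other 5 lay at or below 0.392 CPM, with Baiap3 at 195 CPM and a hypothalamic sum of 236 CPM. The log2 difference of Oxt, 5.35, rests on that library. LeuR library 44 was high for thalamic genes (411 CPM), and LeuR library 47 was high for Chac1 (22.6 CPM) and Eif4ebp1 (6.54 CPM) and low for Pdhx (33.7 CPM).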

How the results depend on the processing

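The count of 0 genes between LeuR-fed and Control-fed females was also obtained with limma voom, with and without quality weights, RLE size factors, 2 other filters, an adjusted p of 0.1, only the 12 libraries in the fit, the choroid plexus level as covariate and without each library in turn. The same count was obtained with the cerebellum-forebrain covariate, where quality weights were not run and the choroid plexus level was added to that covariate. DESeq2 differed and called 1 gene without and 4 with the covariate, 23 for LeuR against IleR, 2 for LeuR against ValR and 310 for the interaction with sex. The interaction count was 33 at an adjusted p of 0.1, 464 with the cerebellum-forebrain covariate, and 1 to 598 without 1 library at a time. It was 2 without female Control library 28, and, added after seeing the data, 598, 72 and 6 without male Control library 4 and male LeuR libraries 20 and 21. The difference in cerebellum-forebrain score ranged from -0.3335 to 2.388 without 1 library at a time and reversed without LeuR library 45 (-0.3335). The cause of these changes was not tested. Of 118 genes named by the rule or called in an alternative, 22 changed sign in 1 or more alternatives. No paired analysis was possible because the library numbers run through the series and no number is shared between the groups. The correlation with leucine content of proteins was not run. Depth limits genes under about 1 CPM, where a value rests on few counts.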

Other observations

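Oligodendrocyte and region markers were measured beside the comparisons. All 12 oligodendrocyte genes lay above 0 (median log2 difference 0.31) and 0 had an unadjusted p under 0.05, and with the choroid plexus level as covariate 0 of 12 lay above 0 (median -0.12). Without LeuR library 44, 10 of 12 did (median 0.097), and without LeuR library 47 and Control library 27 in turn 4 and 1 were higher at an unadjusted p under 0.05. Mbp, the myelin basic protein gene, measured 1537, 2630 and 3548 CPM in Control-fed and 1535, 3226 and 5893 CPM in LeuR-fed females. Of 13 microglial markers 1 lay above 0 (median -0.096), but 6 did with the score covariate (median -0.017), and 7 and 8 did without LeuR library 45 (median 0.033) or 48 (median 0.014). Of 12 endothelial markers 10 lay above 0 (median 0.050). All 11 thalamic genes (median 0.39) and 8 of 9 hippocampal genes (median 0.39) lay above 0, while 1 of 12 striatal genes did (median -0.36), with 0 genes of these 3 lists at an unadjusted p under 0.05. These tallies turned on single libraries and on the covariates. Without LeuR library 44, 7 of 11 thalamic (median 0.097) and 4 of 9 hippocampal genes (median -0.13) lay above 0, and with the choroid plexus level as covariate 1 of 11 and 2 of 9 did. Of the striatal genes 11 of 12 lay above 0 without Control library 25 (median 0.25) and with the score covariate (median 0.17).

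Of 19 circadian clock genes, 5 lay above 0 (median -0.11) and 1, the clock-controlled transcription factor gene Tef, had an unadjusted p under 0.05 (log2 difference -0.19 ± 0.081, and -0.081 with the choroid plexus level as covariate). Without 1 library at a time 0 to 4 clock genes were lower at that p. Of 18 immediate early genes, 6 lay above 0 (median -0.066) and 0 had an unadjusted p under 0.05, with 14 above 0 without Control library 26 (median 0.13) and 2 without LeuR library 44 (median -0.20). Egr1, an activity-induced transcription factor gene, measured 61.0, 223 and 348 CPM in Control-fed and 40.4, 183 and 349 CPM in LeuR-fed females. Of 27 insulin and IGF signaling genes, 10 lay above 0, Igf2 and Igfbp2 were higher at an unadjusted p under 0.05, and Pik3r1, a regulatory subunit of PI3-kinase, was lower (-0.21 ± 0.10). With the score covariate 1 gene, Igf2, was higher and 2 other genes were lower at that p, and Igfbp2 and Pik3r1 did not pass it. When single libraries were left out 1 to 4 were higher and 0 to 2 lower. edgeR's adjusted p for each of these genes was at least 0.968 without the covariate.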
